A study of Homo sapiens with 3 samples.

Results

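The ATP-binding cassette (ABC) genes were followed on 3 dual-colour arrays of drug-treated colon cancer cells. Members were taken by symbol, as every gene that the array design names ABC followed by a subfamily letter from A to G and a number. This gave 46 genes with 69 probes among 41000 probes in all. Probes in columns 1 to 9 of the slide were set aside because the control channel of 1 array was shifted there, and 42 of the 46 ABC genes, with 56 probes, kept a probe elsewhere, out of 17490 genes measured the same way. Of these 42 genes, 11 belonged to subfamily A, 8 to B, 12 to C, 3 to D, 1 to E, 3 to F and 4 to G. ABCA3, ABCB5, ABCD2 and ABCG1 had probes in the set-aside columns alone and are described separately.

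The cells were YB5, 1 clone derived from the colon cancer line SW48, which carries a GFP reporter that is silent because its CMV promoter is methylated at CpG sites. One array each was hybridised for decitabine at 25 nM, for carboplatin at 20 μM by the sample labels, and for both drugs together. The drugs were given in 4 doses on days 1 to 4 and cells were harvested on day 6. Treated RNA carried Cy3 and the RNA of control cells, which received DMSO, carried Cy5 on every array, so a dye effect and a treatment effect cannot be told apart for a single gene. All 3 arrays lie on 1 slide, and it is not given in the sources used here if their control channels carry the same RNA extract. Decitabine is a deoxycytidine analogue that enters DNA and traps DNA methyltransferases, and carboplatin is a platinum compound that crosslinks DNA. Each treatment had 1 array and so no replicate, and no test was possible. A log2 change here is the treated over the control signal of 1 array, and 1.5-fold, a log2 change of 0.585, is the threshold for calling a gene higher or lower. The spread of the 264 probes printed several times on an array, the error available here, was 0.0736 to 0.0786 (SD, log2 scale) and covers the spots of 1 hybridisation only. In RNA of whole cultures, a change in the RNA per cell and a change in the share of cells that express a gene cannot be told apart.

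The drug labels of the single-drug arrays went against lists of the study itself. One list names genes raised by carboplatin, but only those of its top annotation categories, mitochondrion and apoptotic process. Of the 92 measured here, 54 were at least 1.5-fold higher on the array that bears the decitabine label. The counts were 15 on that with the carboplatin label and 52 where both drugs were given. ABCB6 and ABCD3 stand on that list, though ABCD3 passed 1.5-fold on none of the arrays as reported. The matching list of lowered genes holds those of cell division, cell cycle and DNA replication. Of 53 of its genes, 39, 4 and 37 were at least 1.5-fold lower on the same arrays. The arrays are therefore named by their labels throughout, as the decitabine-labelled and the carboplatin-labelled array, beside the combination array with both drugs, and no direction is assigned to a drug beyond its label. Of 10 colon epithelium markers, 9 had a probe outside the set-aside columns and 6 were well above background in every channel, among them CDX2, VIL1 and KRT18. The rest were LGALS4 with 5 of 6 channels, CDH17 with 4 and KRT20 with 2. Of the 9 markers, 2, 2 and 3 were at least 1.5-fold higher and 3, 0 and 2 at least 1.5-fold lower on the decitabine-labelled, carboplatin-labelled and combination arrays. Of all genes measured, 5.11, 2.73 and 7.38 % were higher and 4.9, 1.41 and 5.82 % lower on these arrays. VIL1 had log2 changes of -0.87, 1.86 and 0.20, CDH1 -0.88, 0.02 and -0.86, CDH17 -0.67, -0.48 and -0.87, KRT8 0.73, 0.55 and 0.79, KRT18 0.83, 0.50 and 1.15 and KRT19 -0.001, 0.71 and 0.85. Their part in the results below was not tested.

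ABC proteins bind and split ATP on a pair of conserved nucleotide-binding domains, and most use it to move a substrate across a membrane. Subfamily A carries mainly lipids, B holds P-glycoprotein, the peptide transporters and a group of mitochondrial proteins, C holds the multidrug resistance proteins and regulators of ion channels, D serves peroxisomes and lysosomes, and G exports sterols and drugs. Subfamilies E and F have the ATP-binding domains but no membrane-spanning part and work on the ribosome. In the gut, members such as ABCB1, ABCC2 and ABCG2 sit on the apical surface of epithelial cells and return drugs to the lumen, and platinum compounds conjugated to glutathione are known cargo of ABCC2.

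Decitabine is known to lower methylation at CpG sites, and the CpG content of the promoters is shown for the members on which the results turn. The sequences are the 250 bases before the annotated start in RefSeq (GRCh38.p14), written 5′ to 3′ on the gene's strand, with each CpG in capitals. ABCA12 (chr2:215138627-215138876, minus strand) had the greatest difference of the family, ABCG4 (chr11:119148802-119149051, plus strand) and ABCB6 (chr2:219218959-219219208, minus strand) followed, ABCA5 (chr17:69327134-69327383, minus strand) was the member that was lower, and ABCB1 (chr7:87713296-87713545, minus strand) stands for the genes without signal.
ABCA12: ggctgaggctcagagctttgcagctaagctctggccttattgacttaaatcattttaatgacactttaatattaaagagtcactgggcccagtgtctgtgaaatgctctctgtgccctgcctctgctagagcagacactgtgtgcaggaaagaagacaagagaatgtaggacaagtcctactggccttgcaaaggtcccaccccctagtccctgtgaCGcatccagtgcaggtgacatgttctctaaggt
ABCG4: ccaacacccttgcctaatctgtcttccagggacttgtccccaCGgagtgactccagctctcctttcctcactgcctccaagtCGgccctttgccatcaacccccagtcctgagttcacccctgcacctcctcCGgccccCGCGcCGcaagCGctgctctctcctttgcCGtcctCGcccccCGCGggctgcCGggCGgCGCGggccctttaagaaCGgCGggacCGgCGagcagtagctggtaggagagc
ABCB6: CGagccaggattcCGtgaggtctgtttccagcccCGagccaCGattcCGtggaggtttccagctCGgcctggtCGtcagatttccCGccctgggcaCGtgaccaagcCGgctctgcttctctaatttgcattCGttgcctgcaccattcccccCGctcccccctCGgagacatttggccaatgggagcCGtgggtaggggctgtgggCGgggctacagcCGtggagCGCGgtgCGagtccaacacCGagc
ABCA5: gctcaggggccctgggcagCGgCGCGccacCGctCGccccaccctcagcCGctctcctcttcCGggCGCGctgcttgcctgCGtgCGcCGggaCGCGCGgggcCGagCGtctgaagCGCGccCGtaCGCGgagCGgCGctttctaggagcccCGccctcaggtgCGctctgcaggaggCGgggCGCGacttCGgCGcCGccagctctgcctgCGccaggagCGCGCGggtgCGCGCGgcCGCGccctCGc
ABCB1: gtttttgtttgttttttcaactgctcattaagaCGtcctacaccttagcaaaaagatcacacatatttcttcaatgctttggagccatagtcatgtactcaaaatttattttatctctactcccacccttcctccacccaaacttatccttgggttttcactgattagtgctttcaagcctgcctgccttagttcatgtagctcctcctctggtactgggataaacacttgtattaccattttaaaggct
The ABCA12 window held 1 CpG and that of ABCB1 also 1, while ABCG4 had 19, ABCB6 20 and ABCA5 42. Each window belongs to 1 annotated start of its gene. Other starts, of ABCB1 or any other member, were not examined, so a CpG count stands for that start alone. Methylation was not measured on these arrays, and the windows describe the reference genome, not these cells.

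Expression of the family was divided. A probe was taken as measured where the scanner software flagged it as well above background, and 24 of 42 ABC genes were so in all 6 channels (control and treated on 3 arrays). The count was 12184 of 17490, or 69.7 %, for all genes. Another 13 members were above background in no channel, against 22 % of all genes, and 5 in some channels (ABCA1, ABCA12, ABCC8, ABCC11 and ABCG5). The subfamilies were unequal among these 42 genes. Those of D, E and F were all above background in all 6 channels (3 of 3, 1 of 1 and 3 of 3). So were 7 of 12 in C and 5 of 8 in B, but 3 of 11 in A and 2 of 4 in G. Of the genes in the set-aside columns alone, ABCD2 and ABCB5 had no signal, and ABCA3 and ABCG1 had signal in all 6 channels. The members without signal were ABCA4 of photoreceptors, ABCA6, ABCA8, ABCA9, ABCA10 and ABCA13, P-glycoprotein (ABCB1), the bile transporters ABCB4 and ABCB11, ABCC9, a channel subunit of muscle, ABCC12, ABCC13, and ABCG8, the sterol partner of ABCG5. ABCA6, ABCA8, ABCA9 and ABCA10 lie beside ABCA5 on chromosome 17, and ABCA5 was the 1 gene of this cluster with signal. The log2 changes of the 13 lay from -0.11 to 0.18, from -0.18 to 0.36 and from -0.10 to 0.25 on the decitabine-labelled, carboplatin-labelled and combination arrays, values that carry no level.

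**Figure D1:**
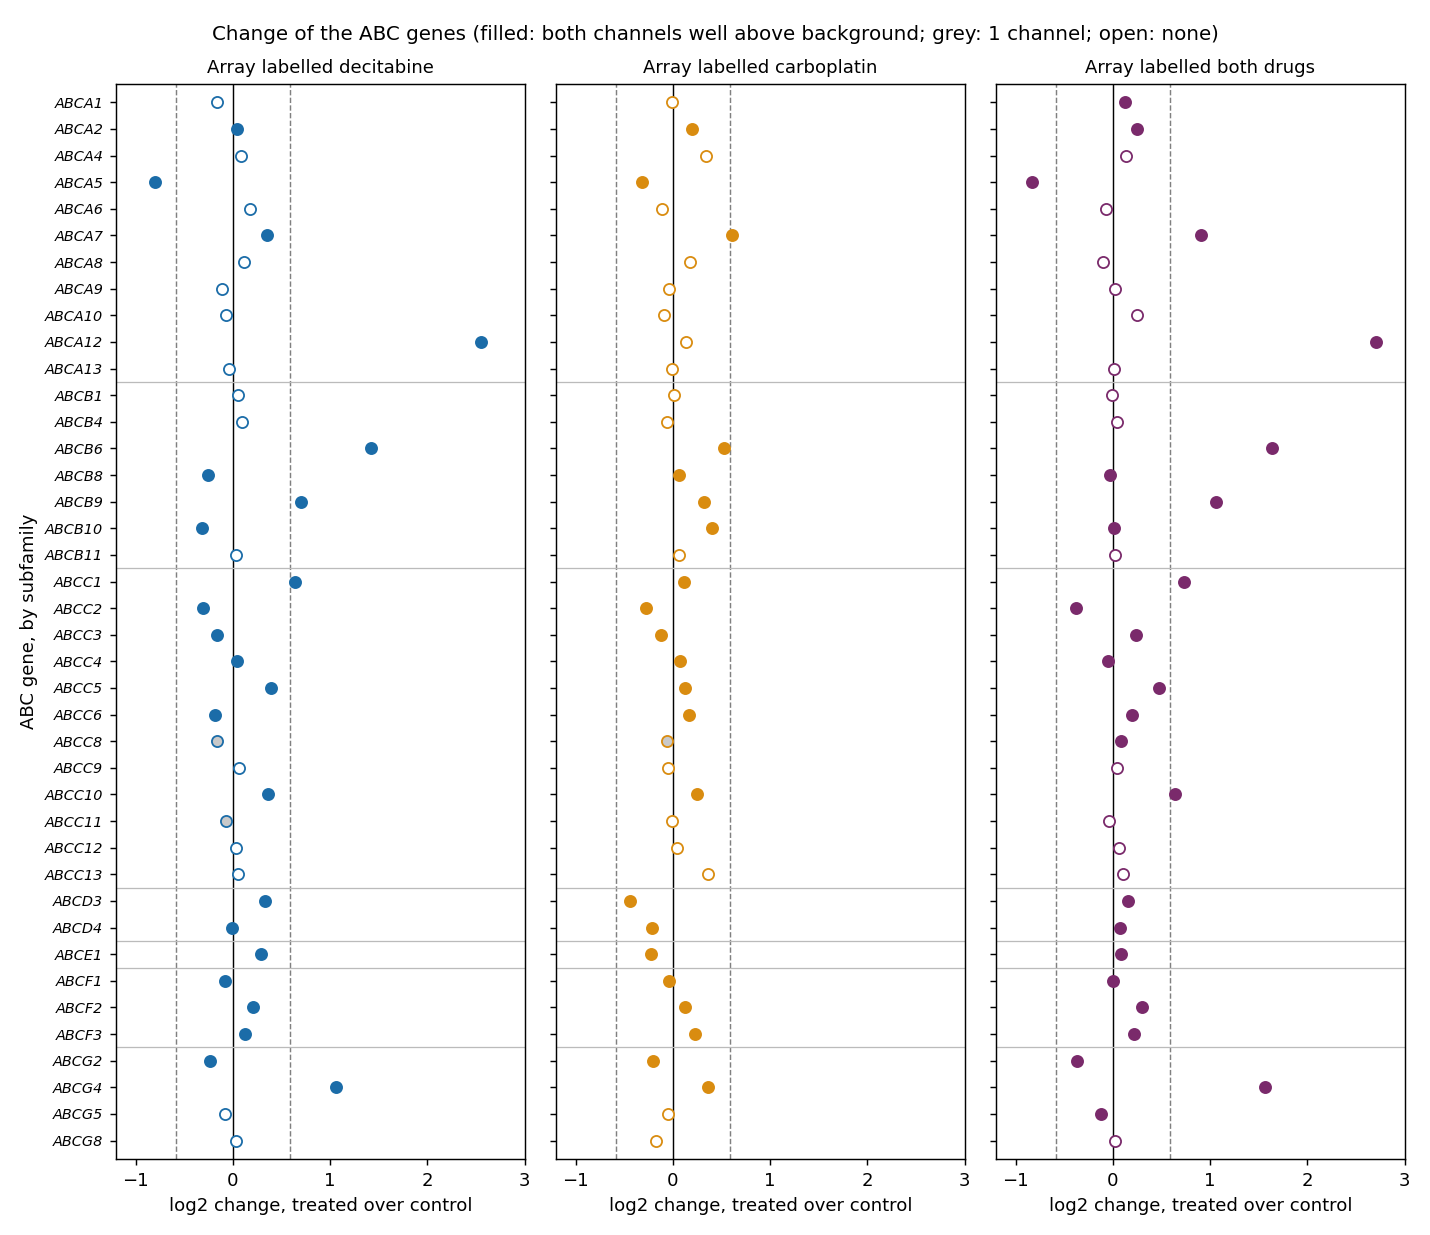
Log2 change, treated over control, of 40 of the 42 ABC genes on the 3 arrays, in order of subfamily. Filled marks have both channels well above background, grey marks 1 and open marks neither, and dashed lines mark 1.5-fold. ABCA12, ABCB6, ABCG4, ABCB9 and ABCC1 lie right of the upper line on the decitabine-labelled and combination arrays, and ABCA5 lies left of the lower line there. ABCA7 alone lies right of the upper line on the carboplatin-labelled array.

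On the decitabine-labelled array, 5 of 42 ABC genes (11.9 %) were at least 1.5-fold higher than in control cells, ABCA12, ABCB6, ABCG4, ABCB9 and ABCC1, where 5.11 % of all genes were. ABCA5 was the 1 member at least 1.5-fold lower (2.38 %, against 4.9 % of all genes). On the carboplatin-labelled array, ABCA7 was the 1 member higher (2.38 %, against 2.73 % of all genes) and 0 were lower (against 1.41 %). On the combination array, 7 members were higher (16.7 %, against 7.38 % of all genes), the 5 of the decitabine-labelled array together with ABCA7 and ABCC10, and ABCA5 was again lower (2.38 %, against 5.82 %). Among members with at least 1 channel above background the shares higher were 18.5 % of 27, 4 % of 25 and 25 % of 28, beside 6.83, 3.58 and 9.82 % of all genes with signal. The shares lower were 3.7 %, 0 % and 3.57 %, beside 6.55, 1.86 and 7.75 %. The median log2 change of the 42 members was 0.04, 0.03 and 0.08, and that of all genes -0.002, -0.003 and 0.005. With median centring in place of loess, which moves the median of all genes to -0.12, -0.13 and -0.10, the counts of higher members were 5, 3 and 4 and those of lower members 4, 5 and 3. That setting left ABCA12, ABCB6, ABCG4 and ABCA5 past the threshold and took ABCC1, ABCA7, ABCC10 and, on the decitabine-labelled array, ABCB9 below it. Its higher members thus include some that loess did not call on the decitabine-labelled array, and are all such members on the carboplatin-labelled one. All 42 members enter these counts, those without signal too. On the decitabine-labelled array median centring moved ABCB1 from 0.06 to 0.49 and ABCB4 from 0.09 to 0.58, both without signal.

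ABCA12 showed the greatest difference of the family. It encodes the transporter that loads glucosylceramide into the lamellar granules of keratinocytes. Its log2 signal was 6.40 in control and 8.95 in treated cells on the decitabine-labelled array, 6.32 and 9.02 on the combination array, and 6.21 and 6.34, neither well above background, on the carboplatin-labelled array. The treated channels of 2 arrays therefore stood apart and the other 4 channels lay together near the lower end of the signal range. The log2 change was 2.55 and 2.71, or 5.85-fold and 6.53-fold, on the decitabine-labelled and combination arrays, and 0.13 on the carboplatin-labelled array. ABCA12 has 1 probe, at 215798845 to 215798904 of chromosome 2 (GRCh37), and its change was 2.43 to 4.18 and 2.59 to 4.49 across 7 ways of processing, with the upper values from the processed signals of the scanner software.

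ABCA7 and ABCA5 are the other members of subfamily A that passed 1.5-fold. ABCA7, a phospholipid transporter related to ABCA1, had log2 signals of 9.57 in control and 9.93 in treated cells on the decitabine-labelled array, 9.66 and 10.27 on the carboplatin-labelled one and 9.54 and 10.44 on the combination array. Its control channels lay within 0.12 of each other and all treated channels were above them, by 0.36, 0.61 and 0.90. Its probe, at 1064196 to 1064932 of chromosome 19 (GRCh37), spans a gap in the genome. ABCA7 differed most from control where both drugs were given, 0.55 above the decitabine-labelled array and 0.29 above the carboplatin-labelled one. ABCA5, a lipid transporter of late endosomes and lysosomes, went the other way. Its log2 signal was 9.67 in control and 8.87 in treated cells on the decitabine-labelled array, 9.38 and 9.07 on the carboplatin-labelled one and 9.46 and 8.63 on the combination array. No treated channel reached a control channel, and ABCA5 was 1.74-fold, 1.24-fold and 1.78-fold lower. A second ABCA5 probe gave changes within 0.04 of the first on every array. ABCA2, a lipid transporter of the endolysosome, had changes of 0.05, 0.19 and 0.24, under the threshold.

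**Figure D2:**
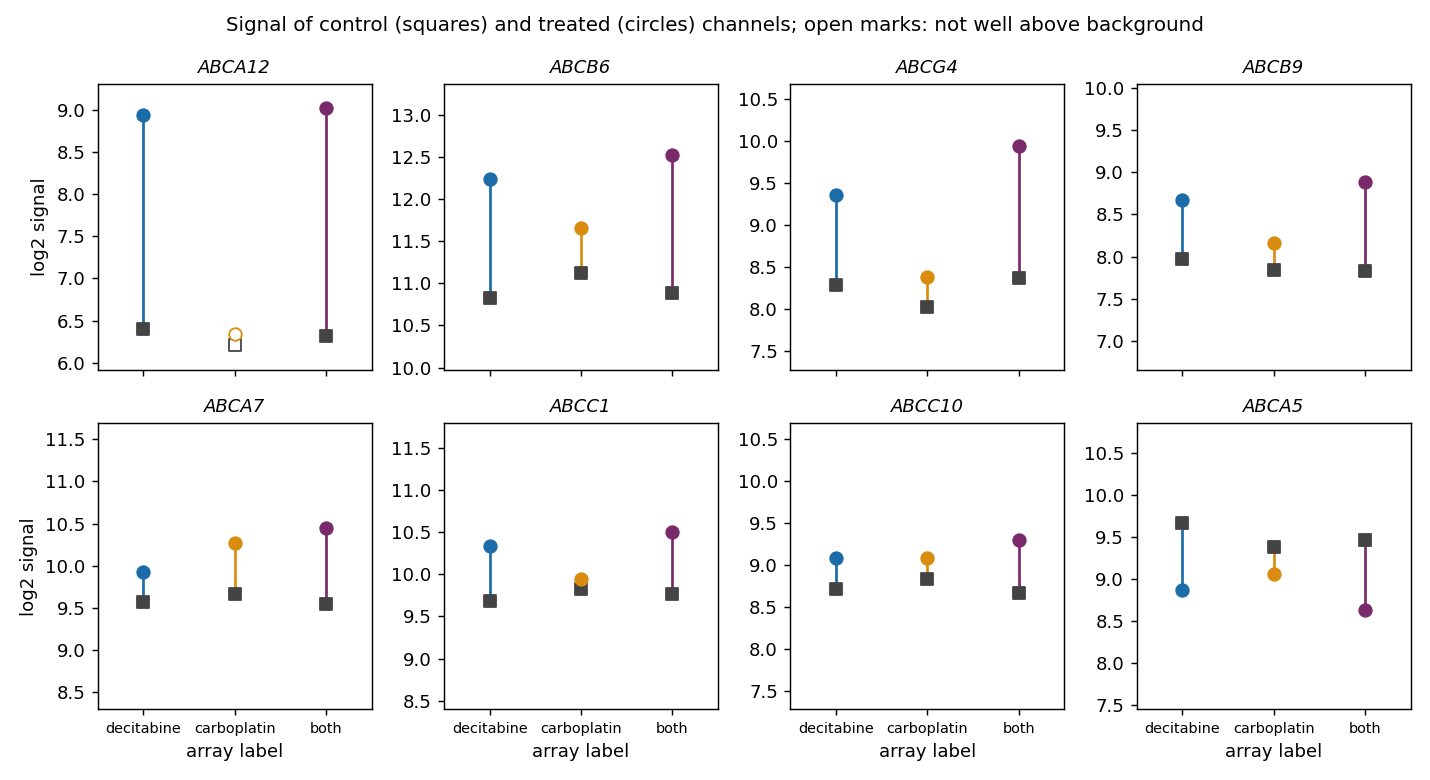
Log2 signal of the control (squares) and treated (circles) channels on each array for the 8 ABC genes at least 1.5-fold from control on an array. Open marks are not well above background, and each panel has its own level range. The ABCA12 treated signal is 8.95 and 9.02 on the decitabine-labelled and combination arrays and 6.34 on the carboplatin-labelled one, and the ABCA5 treated signal lies below control on all arrays.

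The mitochondrial group of subfamily B did not move as a unit. ABCB6, which carries porphyrins, had log2 signals of 10.83 in control and 12.25 in treated cells on the decitabine-labelled array, 11.13 and 11.66 on the carboplatin-labelled one and 10.89 and 12.52 on the combination array. The treated channels were above all control channels, 2.67-fold, 1.44-fold and 3.11-fold. A second ABCB6 probe gave 1.23, 0.45 and 1.52 on the log2 scale beside 1.42, 0.53 and 1.64 for the brighter one. As ABCB6 is on the study's list, its rise is not an independent observation. ABCB8, of the mitochondrial inner membrane, had -0.26, 0.06 and -0.03. ABCB10, of the same membrane, had -0.32 and 0.41 on the single-drug arrays and 0.01 on the combination array, but its probes did not give 1 answer. A probe overlapping the first by 3 bases gave -0.25, 0.36 and 0.03, whereas a further probe, which overlaps neither, gave -0.32, -0.41 and -0.42. The probes were 0.82 apart on the carboplatin-labelled array, so the direction of ABCB10 there depends on the probe.

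ABCB9, a peptide transporter of lysosomes related to the TAP proteins, had log2 signals of 7.97 in control and 8.67 in treated cells on the decitabine-labelled array, 7.84 and 8.17 on the carboplatin-labelled one and 7.83 and 8.88 on the combination array. All 3 treated channels were above all control channels, and the folds were 1.62, 1.25 and 2.08. Its second probe gave log2 changes of 0.57, 0.41 and 0.82 beside 0.70, 0.32 and 1.06, which puts it just under the threshold on the decitabine-labelled array. TAP1, a peptide transporter of antigen presentation that is an ABC protein under another symbol, was 0.67, -0.21 and 0.86, and so passed 1.5-fold on the same arrays as ABCB9. TAP2 and CFTR passed it on none.

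Among the 11 drug efflux pumps, 8 were above background in every channel, and 1, 0 and 2 were at least 1.5-fold higher on the decitabine-labelled, carboplatin-labelled and combination arrays. None was lower by that much. With 5.11, 2.73 and 7.38 % of all genes higher and 4.9, 1.41 and 5.82 % lower, these counts do not set the pumps apart from other genes. ABCC1, multidrug resistance protein 1, which exports glutathione conjugates, had log2 signals of 9.69 in control and 10.34 in treated cells on the decitabine-labelled array, 9.83 and 9.94 on the carboplatin-labelled one and 9.77 and 10.50 on the combination array. The treated channels of 2 arrays stood above the rest, by 1.56-fold and 1.66-fold against their controls, and on the carboplatin-labelled array the channels differed by 1.08-fold. ABCC10, another multidrug resistance protein, had signals of 8.72 and 9.08, 8.83 and 9.08, and 8.67 and 9.30 in the same order. Its fold was 1.29, 1.19 and 1.55, the smallest called on the combination array. ABCC5, an exporter of cyclic nucleotides and nucleotide analogues, lay just below the threshold on the combination array, with log2 changes of 0.40, 0.12 and 0.47.

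The other pumps with signal throughout lay within 1.5-fold of control in the values as reported, and for ABCG2 and ABCC2 this depended on the processing. ABCG2, the breast cancer resistance protein, had log2 signals of 11.60 in control and 11.36 in treated cells on the decitabine-labelled array, 11.46 and 11.25 on the carboplatin-labelled one and 11.59 and 11.22 on the combination array. Each treated channel was below its control, by 1.18-fold, 1.15-fold and 1.29-fold, under 1.5-fold. With median centring ABCG2 passed it on all 3 arrays, with log2 changes of -0.67, -0.64 and -0.81. That setting lowered other bright members too, on the decitabine-labelled array ABCB6 from 1.42 to 0.985 and ABCD4 from -0.01 to -0.44. The dim ABCB1 rose there from 0.06 to 0.49. ABCC2, which carries glutathione conjugates across the apical membrane, was, like ABCG2, lower on each array, with changes of -0.31, -0.28 and -0.38. By its second probe the changes of ABCC2 were -0.16 or lower. With the processed signals of the scanner software ABCC2 was -0.57, -0.85 and -0.88, past 1.5-fold lower on the carboplatin-labelled and combination arrays. With the log ratio of that software ABCC2 was -0.63, -0.89 and -0.92, past 1.5-fold lower on all 3 arrays. ABCC3, its basolateral relative, had -0.16, -0.12 and 0.23, and its value on the combination array was 0.51 above the sum of the single-drug arrays, the farthest from the sum among members with signal throughout. ABCC4, a cyclic nucleotide exporter, had 0.05, 0.07 and -0.05. ABCC6, of liver and kidney, had -0.18, 0.17 and 0.20, and its dimmer second probe, with signal in all 6 channels, 0.020, 0.048 and -0.003. Near-identical pseudogenes exist, so ABCC6 signal may be shared and is uncertain. ABCC11 was above background in 1 channel, the control of the decitabine-labelled array, and its change there, -0.07, was within the SD of repeated spots. That change was 0.17 with median centring, -1.23 with processed signals and -1.26 with the scanner's log ratio, so ABCC11 has no settled direction. ABCB1 and ABCB4 had signal in no channel: the log2 signal of ABCB1 was 6.11 to 6.19 in all 6, and its change was 0.06, 0.01 and -0.01 over spots repeated on the array, whose SD was 0.148, 0.085 and 0.0889. ABCC8, a potassium channel subunit and no pump, was above background in both channels on the combination array (log2 change 0.08) and in control cells alone on the single-drug arrays (-0.16 and -0.06). There median centring gave 0.00 and 0.18, processed signals -0.36 and -0.72 and the scanner's log ratio -0.45 and -0.77, so no direction is settled.

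**Figure D3:**
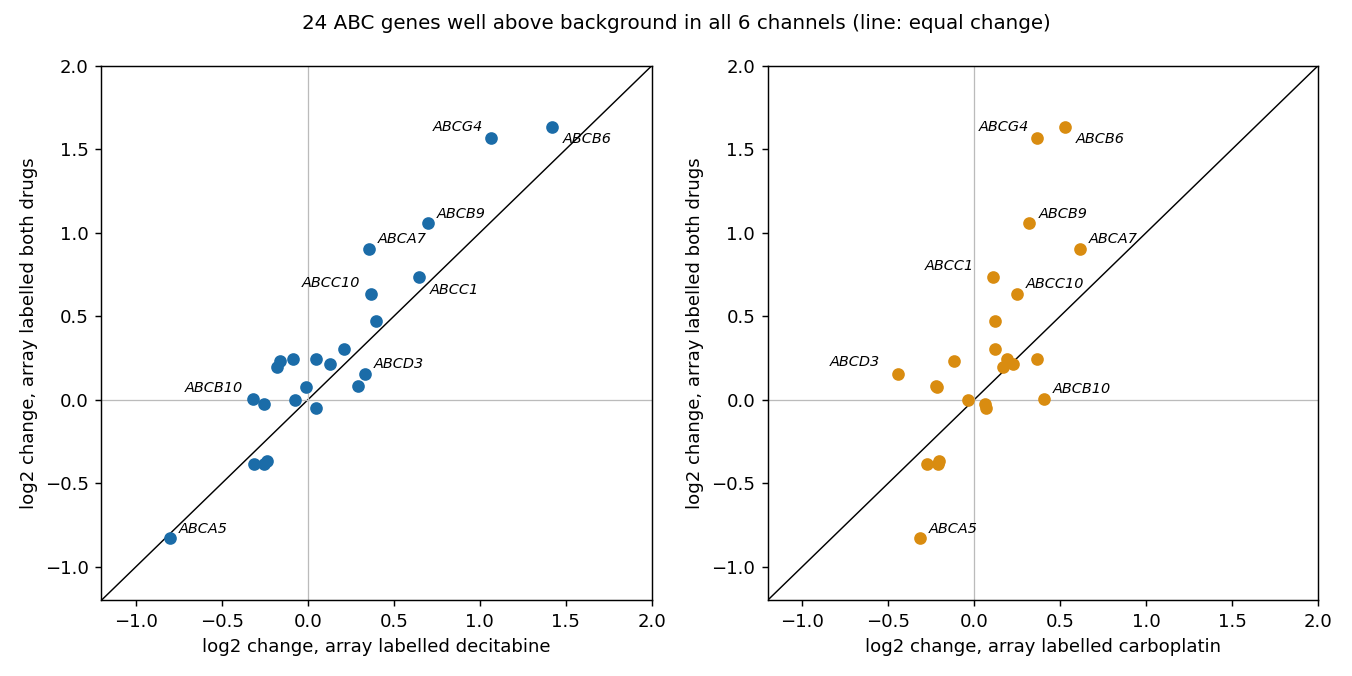
Log2 change on the combination array against that on the decitabine-labelled array (left) and the carboplatin-labelled one (right), for the 24 ABC genes well above background in all 6 channels, with the line of equal change. ABCB6 and ABCG4 reach 1.64 and 1.57 with both drugs, 17 of 24 points lie above the line on the left and 15 on the right.

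In subfamily G, ABCG4, which exports cholesterol and sterol intermediates mainly in brain, was the member that passed 1.5-fold. Its log2 signal was 8.29 in control and 9.36 in treated cells on the decitabine-labelled array, 8.03 and 8.39 on the carboplatin-labelled one and 8.37 and 9.94 on the combination array. Its control channels spread by 0.35, the most of the 24 members with signal in all channels, where the median spread was 0.13. The folds were 2.09, 1.29 and 2.96, so the value with both drugs was 0.50 above that of the decitabine-labelled array on the log2 scale. ABCG5, an intestinal sterol exporter, was above background on the combination array alone, with a change of -0.12, and its partner ABCG8 on none. ABCA1, which passes cholesterol to apolipoprotein A-I, was likewise above background on the combination array alone, and its probes disagreed there. The brighter probe gave 0.13, while the other gave 0.74, was above background in treated cells only and was at least 1.34-fold higher. Of 11 partners in sterol control, APOE, a cholesterol acceptor, had changes of 0.03, 0.81 and 0.90, and SREBF1, a regulator of lipid synthesis, -1.72, -0.10 and -1.22, and no other passed 1.5-fold.

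The 3 members of subfamily D with a probe outside the set-aside columns were above background throughout and passed 1.5-fold nowhere. With median centring, though, ABCD3 (-0.75) and ABCD4 (-0.66) were lower by more than that on the carboplatin-labelled array. ABCD2, in the set-aside columns alone, was above background in no channel. ABCD3, the 70-kDa peroxisomal membrane protein, had log2 signals of 9.52 in control and 9.86 in treated cells on the decitabine-labelled array, 9.51 and 9.07 on the carboplatin-labelled one and 9.44 and 9.60 on the combination array. Its control channels lay within 0.08, and the treated channel was above them on 2 arrays and below on the carboplatin-labelled one (0.33, -0.44 and 0.16). The study lists ABCD3 among genes raised by carboplatin. ABCD4, the lysosomal cobalamin transporter, had -0.01, -0.21 and 0.07. The 11 peroxisome and cobalamin partners held 2, 0 and 0 higher and 0, 0 and 1 lower. Of all genes with signal, 6.83, 3.58 and 9.82 % were higher and 6.55, 1.86 and 7.75 % lower, and the list is too small to be told from these shares. SLC27A2, an acyl-CoA synthetase, had log2 changes of 0.68, -0.12 and 0.56, and LMBRD1, which acts with ABCD4, -0.46, -0.52 and -0.65.

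The ribosome members ABCE1, ABCF1, ABCF2 and ABCF3 were above background in every channel and within 1.5-fold of control on every array. ABCE1, which splits ribosomes after termination, had log2 signals of 9.12 in control and 9.41 in treated cells on the decitabine-labelled array, 9.13 and 8.91 on the carboplatin-labelled one and 9.0 and 9.08 on the combination array. Like ABCD3, it was above control on the decitabine-labelled array and below on the carboplatin-labelled one (0.29, -0.22 and 0.08). ABCF1, a factor of translation initiation, gave -0.076, -0.037 and -0.001, all within 3 SD of repeated spots (0.236, 0.221 and 0.227). It shared this with ABCC4, ABCC6 and ABCD4 among the 24 members. ABCF2 had 0.21, 0.12 and 0.30 and ABCF3, its relative, 0.13, 0.23 and 0.22. Of 11 partners in ribosome recycling and initiation, EIF2AK4, the kinase GCN2, passed 1.5-fold, on the combination array (0.53, -0.21 and 0.69).

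Of 15 mitochondrial haem and iron genes, 2, 0 and 2 were higher and 1, 1 and 1 lower, where the shares of all genes with signal were 6.83, 3.58 and 9.82 % higher and 6.55, 1.86 and 7.75 % lower, too small a list to be told from these shares. ISCU, the scaffold of iron-sulphur clusters, had log2 changes of 1.25, 0.57 and 1.20. The lower genes were SLC25A37, a mitochondrial iron importer (-0.71, 0.13 and -0.53), TFRC, the transferrin receptor (-0.12, -0.68 and -0.04), and ALAD of haem synthesis (-0.36, 0.08 and -0.66). Of 12 xenobiotic and stress regulators of efflux genes, NFE2L2, which drives several subfamily C genes, was the 1 past the threshold (-0.41, -0.70 and -0.53), on the carboplatin-labelled array. Of 17 conjugating enzymes, SULT2B1, a sterol sulphotransferase, was the 1 past it (-0.59, 0.08 and -0.64).

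The combination array was above the decitabine-labelled array for 17 of the 24 members with signal throughout and above the carboplatin-labelled array for 15, where 50.5 and 50.6 % of all such genes were. The median of these differences was 0.09 and 0.11 on the log2 scale. Against the sum of the log2 changes of the single-drug arrays, the combination array lay from -0.31 (ABCB6) to 0.51 (ABCC3), with a median of 0.03, and no member was 1.5-fold from the sum. Beyond 3 SD of repeated spots lay 15, 12 and 15 of the 24 members on the decitabine-labelled, carboplatin-labelled and combination arrays, of which 9, 8 and 11 were higher, beside 48.4, 43 and 54.9 % of all genes with signal throughout. That spread does not include differences between cultures.

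**Figure D4:**
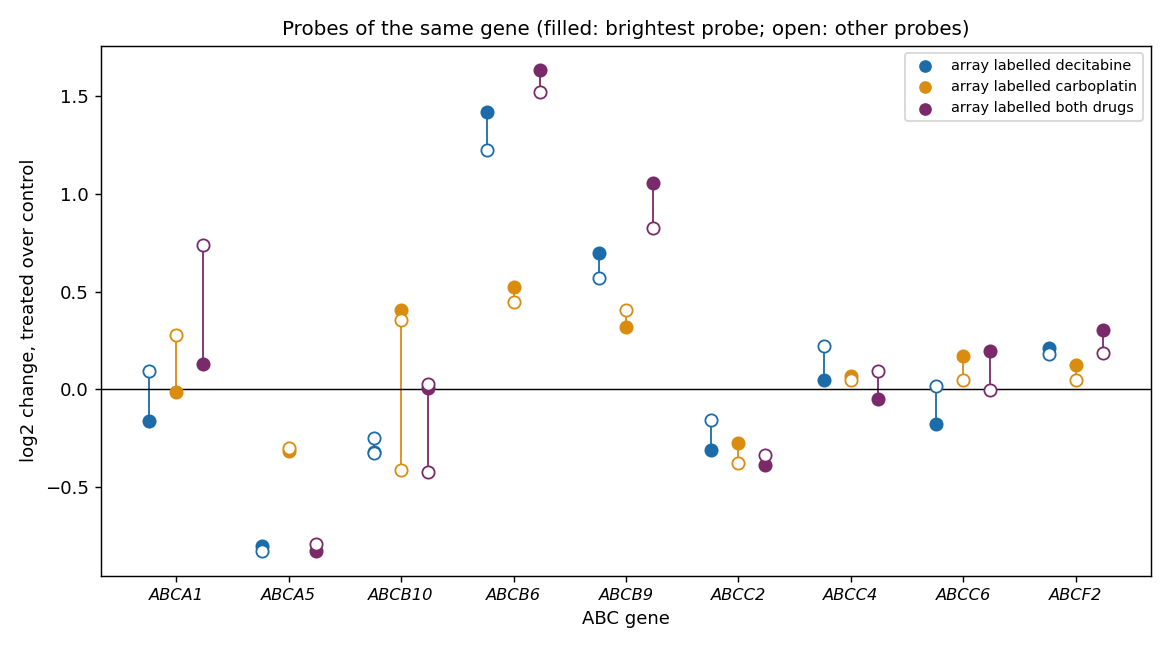
Log2 change of each probe of the 9 ABC genes for which more than 1 probe outside the set-aside columns was above background in at least 1 channel, on the 3 arrays. Probes above background in no channel are left out. Filled marks are the brightest probe, open marks the others, and lines join probes of 1 array. The ABCA5 probes lie within 0.04, while those of ABCB10 lie 0.82 apart on the carboplatin-labelled array and those of ABCA1 0.61 apart on the combination array.

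The promoters shown above belong to 33 of the 42 members for which the RefSeq table holds a window, and 1 annotated start was used for each gene. ABCA4, ABCA8, ABCB4, ABCC1, ABCC3, ABCC8 and ABCC13 were not among them. The 6 members at least 1.5-fold higher on an array held 1 to 25 CpG in the 250 bases, with a median of 18.5, and ABCA12, the lowest, stood apart from ABCC10, the next, with 16. The 14 members with signal and no such change held 1 to 42, with a median of 22.5, and the 9 without signal 1 to 15, with a median of 2. Over all 27305 promoters the range was 0 to 67 and the median 11. The letters GGGCGG, a GC box on either strand, were in 16 of the 33 windows and in 42.3 % of all promoters. They were in 5 of the 6 higher members, all but ABCA12, and in 1 of the 9 without signal, ABCC9. CCAAT on either strand was in 5 windows, those of ABCA6, ABCA7, ABCB6, ABCB8 and ABCF2, against 33 % of all promoters.

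**Figure D5:**
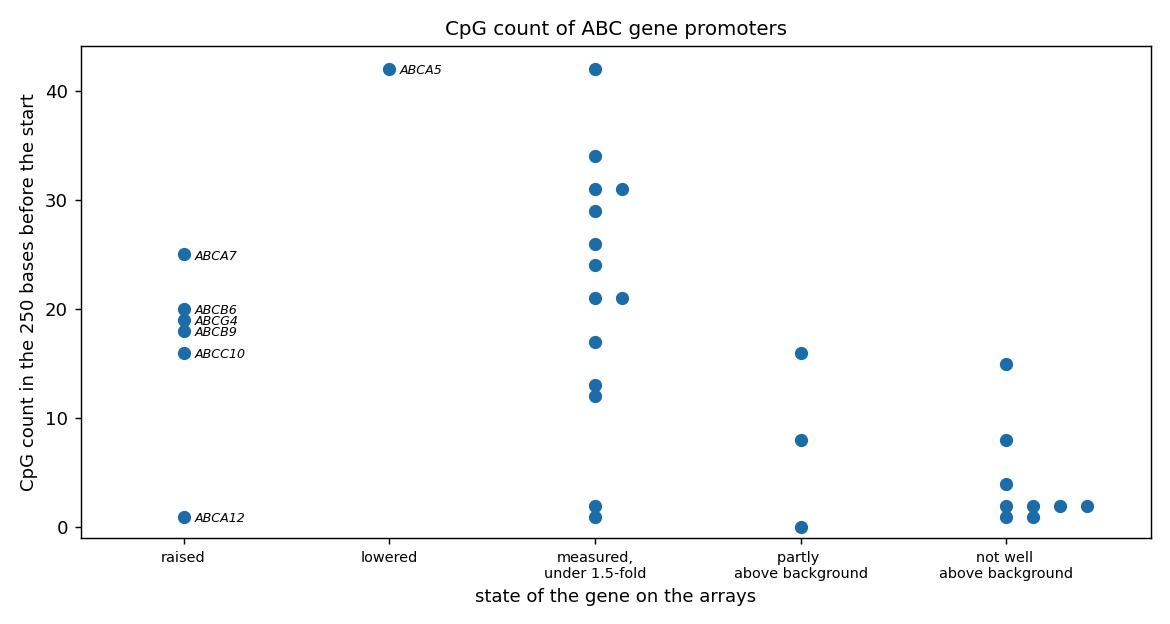
CpG count in the 250 bases before the RefSeq start of 33 ABC genes, grouped by what the arrays showed. Each point is 1 gene. The 9 genes without signal have a median of 2, those higher of 18.5 and those with signal and under 1.5-fold of 22.5, and ABCA12 with 1 CpG lies apart from the other higher genes.

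The 4 members in the set-aside columns are given with all columns kept. Those columns held 10.1 % of spots, and the median log2 change there was 0.75 on the decitabine-labelled array, -0.03 on the carboplatin-labelled one and 0.01 on the combination array, against -0.019, -0.004 and -0.003 elsewhere. ABCA3, the surfactant lipid transporter of lung lamellar bodies, had log2 signals of 11.36 in control and 13.39 in treated cells on the decitabine-labelled array, 13.08 and 13.40 on the carboplatin-labelled one and 13.01 and 13.72 on the combination array. It is the control channel of the decitabine-labelled array that stands apart, while the treated channels lie within a narrow range, so the change of 2.02 there is not counted. The other arrays gave 0.32 and 0.71, the latter past 1.5-fold. The authors' deposited ratios for ABCA3 were 0.74, 0.90 and 1.15, all past 1.5-fold. ABCG1, which exports cholesterol to lipoproteins, showed the same drop of its control channel, 7.23 against 8.26 and 8.29, and changes of 0.39, -0.04 and -0.49. Its deposited ratios were -0.28, 0.29 and -0.11, of the other sign on the single-drug arrays. ABCB5 and ABCD2 were above background in no channel.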

How the data were processed

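Members and gene lists were chosen with earlier results of these data known. The deposited scanner files hold spot intensity read by Agilent Feature Extraction (9.5.3.1 by the file headers, 8.5.1.1 in the submitters' processing notes). Their log ratio, as deposited, is the log10 of processed red over green signal. The authors' value table holds log2 ratios, loess normalized with limma, whose direction is not stated; it correlated at 0.948, 0.908 and 0.959 with treated over control here.

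Mean intensities were background corrected (normexp, offset 50), columns 1 to 9, control spots and outlier spots were left out, and loess was fitted within each array (R 4.3.3, limma 3.58.1). The offset and background draw dim folds towards 1. Channel levels were Aquantile scaled. Spots of a probe were averaged and a gene took its brightest probe. "At least" folds set a channel above background against the lowest such signal or the other channel, whichever was higher. Control signal was well above background for 68.2 to 70.2 % of spots and treated signal for 65 to 68.4 %. Members were named if called at 1.5-fold with signal, if drug pumps, lipid exporters or ribosome members, or if their probes disagreed most, and partners if called. Remaining members are given by role. Probe positions are GRCh37 and were not annotated to exons. Some genes are not reported here. Protein sequences were not used here. No per-sample column was left unmapped. Scripts were tested on simulated data. Figures used Python 3.11.15, pandas 2.3.3 and matplotlib 3.10.9.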

Additional observations from a re-analysis of the deposited data

Results flagged for a closer look

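Each of 3 ABC genes with signal in every channel lay at or beyond 3 SD of repeated spots, in opposite directions on the decitabine-labelled and carboplatin-labelled arrays. With 1 array each these differences were not tested. ABCB10 had log2 changes of -0.32 and 0.41, which its other, distant probe did not share (-0.32 and -0.41). ABCD3 had 0.33 and -0.44, and ABCE1 0.29 and -0.221, the latter on the limit, as 3 SD on the carboplatin-labelled array was 0.221. Each of ABCD3 and ABCE1 rests on the probe described above, and the combination array lay between the single-drug arrays for all 3 genes (0.01, 0.16 and 0.08). With median centring the opposite directions were lost for ABCB10 (-0.73 and -0.01), ABCD3 (-0.02 and -0.75) and ABCE1 (-0.03 and -0.50).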

How the results depend on the processing

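No value past 1.5-fold as reported turned its direction among the 8 alternatives run. Some values under it did, among them those of the dim ABCC8 and ABCC11. Of the values of single genes, 473 moved by less than the SD of repeated spots and 228 by more. Of 72 values for the counts and medians, 51 kept within 1.5 times or the spread of repeated spots. With median centring, the count of lower members was 4, 5 and 3 on the decitabine-labelled, carboplatin-labelled and combination arrays, that of higher members 3 and 4 on the latter arrays, and the medians were 0.14, 0.184 and 0.195. The members then higher on the carboplatin-labelled array were all ones that loess did not call. With processed signals 3, 2 and 3 members were lower and 4 were higher on the carboplatin-labelled array, and the scanner's own log ratio gave the same counts (3, 2, 3 and 4) and a median of 0.00 with both drugs. The deposited ratios had 2 higher on the carboplatin-labelled array. Keeping columns 1 to 9 gave 8 higher of 46 on the decitabine-labelled array. Members above background in both channels had medians of 0.116 (24 genes) and 0.175 (28 genes) on the carboplatin-labelled and combination arrays. The cause was not tested.

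ABCA12, ABCB6, ABCG4 and ABCA5 passed 1.5-fold under 7 of 7 settings on the decitabine-labelled and combination arrays, as ABCB9 did with both drugs. Median centring took below it ABCB9 (0.47) and ABCC1 (0.27) on the decitabine-labelled array, ABCA7 (0.25) on the carboplatin-labelled one, and ABCC1 (0.34), ABCA7 (0.52) and ABCC10 (0.34) with both drugs. The deposited ratios also left ABCC1 on the decitabine-labelled array and ABCC10 below it. Further values passed it under an alternative alone. With median centring they included ABCG2 on all 3 arrays (-0.67, -0.64 and -0.81), ABCB10 (-0.73) on the decitabine-labelled array and ABCA5 (-0.62), ABCD3 (-0.75) and ABCD4 (-0.66) on the carboplatin-labelled one. With processed signals they were ABCC2 (-0.85 and -0.88) on the carboplatin-labelled and combination arrays and the dim ABCA1, ABCC8 and ABCC11. With the scanner's log ratio they were ABCC2 on all 3 arrays (-0.63, -0.89 and -0.92) and the same dim genes. With columns 1 to 9 kept they were ABCC5 (1.65) and ABCE1 (1.58) on the decitabine-labelled array, and with the deposited ratios ABCB6 (0.64) on the carboplatin-labelled one. Signal near background limits ABCA12, and the 13 members without signal have no measured change. No paired analysis was possible because each treatment has 1 array.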
